A study of Mus musculus with 4 samples.

Results

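The core circadian clock genes Arntl, Clock, Npas2, Cry1, Per1, Per2, Per3, Nr1d1, Nr1d2 and Dbp were followed in single nuclei of mouse liver. These 10 genes were chosen by name, as the rows of the feature lists that carry their symbols, out of 32285 genes measured in both count matrices, and each symbol matched 1 row. Nuclei came from flash-frozen top left liver lobes of C57BL/6J mice, an inbred strain. The 4 groups of 2 mice each were chow females and chow males, which ate standard chow for 16 weeks, and FPC females and FPC males, which ate the fructose-palmitate-cholesterol (FPC-NASH) diet for 16 weeks. No allele or drug distinguished the groups, and the diet is a dietary model of steatohepatitis. Each mouse was marked with a hashtag antibody, and 1 mouse of every group was sequenced together in each of the 2 pools, named pool 2 and pool 3 here because the labels number them so. The same hashtag stood for the same group in both pools, so a property of the tag and of the group cannot be told apart. The sources used here give neither age nor time of collection, so time of day and group, or time of day and pool, cannot be told apart by the labels either.

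The clock is a transcriptional feedback loop. BMAL1, the product of Arntl, pairs with CLOCK or with the related NPAS2, binds E-box sequences and activates the Per, Cry, Nr1d1, Nr1d2 and Dbp genes. PER and CRY proteins then repress that activation, while REV-ERB alpha and beta, the products of Nr1d1 and Nr1d2, repress Arntl, Npas2 and Cry1 through ROR elements. DBP activates genes with D-boxes, Per3 among them. In liver the loop runs in nearly every hepatocyte, is set by feeding time and hormones, and gives Arntl and Nr1d1 RNA nearly opposite peaks over the day. A level read at a single unknown time therefore carries both phase and amplitude.

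Sequences upstream of the members are shown because the genes described most fully below differ in which of these elements lie next to their start sites. RefSeq promoter windows of 300 bases (250 before and 50 after the start, build GRCm38.p6, equal to mm10 in coordinates) were matched for 9 of the 10 members, in 13 windows. Per2 had no window and was not searched. The motifs searched on both strands were the E-box CACGTG (in 7.15% of all 32851 windows), the E-prime box CACGTT (4.68%), the ROR element core TAGGTCA (2.61%), the D-box TTANGTAA (2.32%), the cyclic AMP element core TGACGTCA (1.79%) and its half-site TGACG (20.8%), which lies inside that core. Capitals mark every match except the half-site, and sequences run 5′ to 3′ on the gene's strand. Nr1d1 (chr11:98775328-98775627, minus strand) has 1 E-prime box, which starts at position -28. Cry1 (chr10:85185005-85185304, minus strand) has an E-box at -60, an E-prime box at -79 and a half-site at -8. Dbp (chr7:45704997-45705296, plus strand) has none of these letters in the window. Arntl (chr7:113207261-113207560, plus strand, the second of 2 windows) has a ROR element core at position 31, and Per3 (chr4:151044616-151044915, minus strand) has D-boxes at -205 and -158.
Nr1d1: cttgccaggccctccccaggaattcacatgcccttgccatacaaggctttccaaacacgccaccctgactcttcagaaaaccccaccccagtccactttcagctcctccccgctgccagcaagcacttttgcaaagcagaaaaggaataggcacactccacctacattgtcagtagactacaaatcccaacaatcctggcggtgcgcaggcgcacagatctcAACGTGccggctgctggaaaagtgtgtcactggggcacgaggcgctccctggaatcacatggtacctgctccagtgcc
Cry1: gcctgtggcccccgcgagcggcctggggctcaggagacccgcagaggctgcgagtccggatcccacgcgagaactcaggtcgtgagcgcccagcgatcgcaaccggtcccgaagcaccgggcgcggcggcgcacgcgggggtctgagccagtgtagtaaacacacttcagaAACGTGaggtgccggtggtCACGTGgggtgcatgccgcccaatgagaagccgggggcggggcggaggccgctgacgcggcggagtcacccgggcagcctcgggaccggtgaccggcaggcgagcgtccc
Dbp: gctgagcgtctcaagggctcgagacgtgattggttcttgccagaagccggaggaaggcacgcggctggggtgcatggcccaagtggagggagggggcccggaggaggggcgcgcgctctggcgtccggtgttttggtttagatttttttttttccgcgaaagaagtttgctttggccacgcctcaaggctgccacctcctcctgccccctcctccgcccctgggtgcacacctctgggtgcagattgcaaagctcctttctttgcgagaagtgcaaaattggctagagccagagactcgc
Arntl: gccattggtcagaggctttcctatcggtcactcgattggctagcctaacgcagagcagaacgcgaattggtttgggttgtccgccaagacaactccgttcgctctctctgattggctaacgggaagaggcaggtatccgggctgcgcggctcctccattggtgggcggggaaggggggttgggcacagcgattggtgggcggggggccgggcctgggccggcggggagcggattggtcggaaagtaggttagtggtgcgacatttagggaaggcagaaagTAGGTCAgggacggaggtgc
Per3: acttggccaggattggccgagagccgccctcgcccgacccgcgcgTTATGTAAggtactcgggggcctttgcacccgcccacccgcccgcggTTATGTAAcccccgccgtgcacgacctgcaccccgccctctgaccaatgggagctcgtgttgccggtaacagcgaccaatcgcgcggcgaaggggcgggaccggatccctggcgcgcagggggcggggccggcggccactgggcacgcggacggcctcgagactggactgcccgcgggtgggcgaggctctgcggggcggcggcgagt
Among the windows not shown, the first of 2 for Per1 held 1 E-box at -166 and each of the 2 held 1 half-site, and the windows of Clock, Npas2 and Nr1d2 held no match. A match is a stretch of letters and was not tested as a binding site.

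Pool 2 comprised 21604 barcodes and 92599176 unique molecular identifiers (UMIs, counted RNA molecules), and pool 3 comprised 28580 and 110575125. Filtering and hashtag assignment left 14343 nuclei, of which 12841 were hepatocyte-like, 366 endothelial-like, 322 stellate-like and 263 macrophage-like, classes named from marker genes. Counts were summed per mouse and class, giving 5527629 to 10670869 UMIs per mouse in hepatocyte-like nuclei, and levels are given as CPM, a gene's UMIs scaled to 1000000 UMIs of the class. The hepatocyte label was itself given from a list of 12 markers such as Cps1 and Hnf4a. None of them was at 0 in any group, which is no separate check of the label. Xist, the transcript of the inactive X chromosome, was 2312 to 3341 CPM in the 4 mice labelled female and 55.4 to 86.5 CPM in the 4 labelled male. The pools shared 161 barcodes, which were kept as separate nuclei.

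All 10 members were detected in hepatocyte-like nuclei of all 8 mice and passed the filter on low counts, with 70 UMIs in total for Npas2, 607 for Arntl and 1815 to 14128 for the other members. Per kilobase of gene span, a scale that assumes reads along the whole gene, the mean level over the 8 mice fell in the order Dbp (9.25 ± 3.52 CPM per kb, SD, n = 8), Nr1d2 (5.88 ± 0.871), Nr1d1 (3.70 ± 1.93), Per3 (3.24 ± 1.52), Per1 (2.73 ± 0.975), Per2 (1.42 ± 0.347), Clock (1.09 ± 0.210), Cry1 (0.534 ± 0.243), Arntl (0.0835 ± 0.0276) and Npas2 (0.00643 ± 0.00362). The steps from Clock to Cry1, from Cry1 to Arntl and from Arntl to Npas2 exceeded the summed SDs, and the other steps did not. These SDs are between mice. All genes were read in the same 8 mice, and neighbours were not compared within mice, so smaller steps are not shown to be absent. Per mouse, the highest level was 5.95-fold the lowest for the scarce Npas2, 4.08-fold for Nr1d1, 3.88-fold for Per3, 3.53-fold for Cry1, 1.84-fold for Clock and 1.55-fold for Nr1d2, all in CPM.

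**Figure D1:**
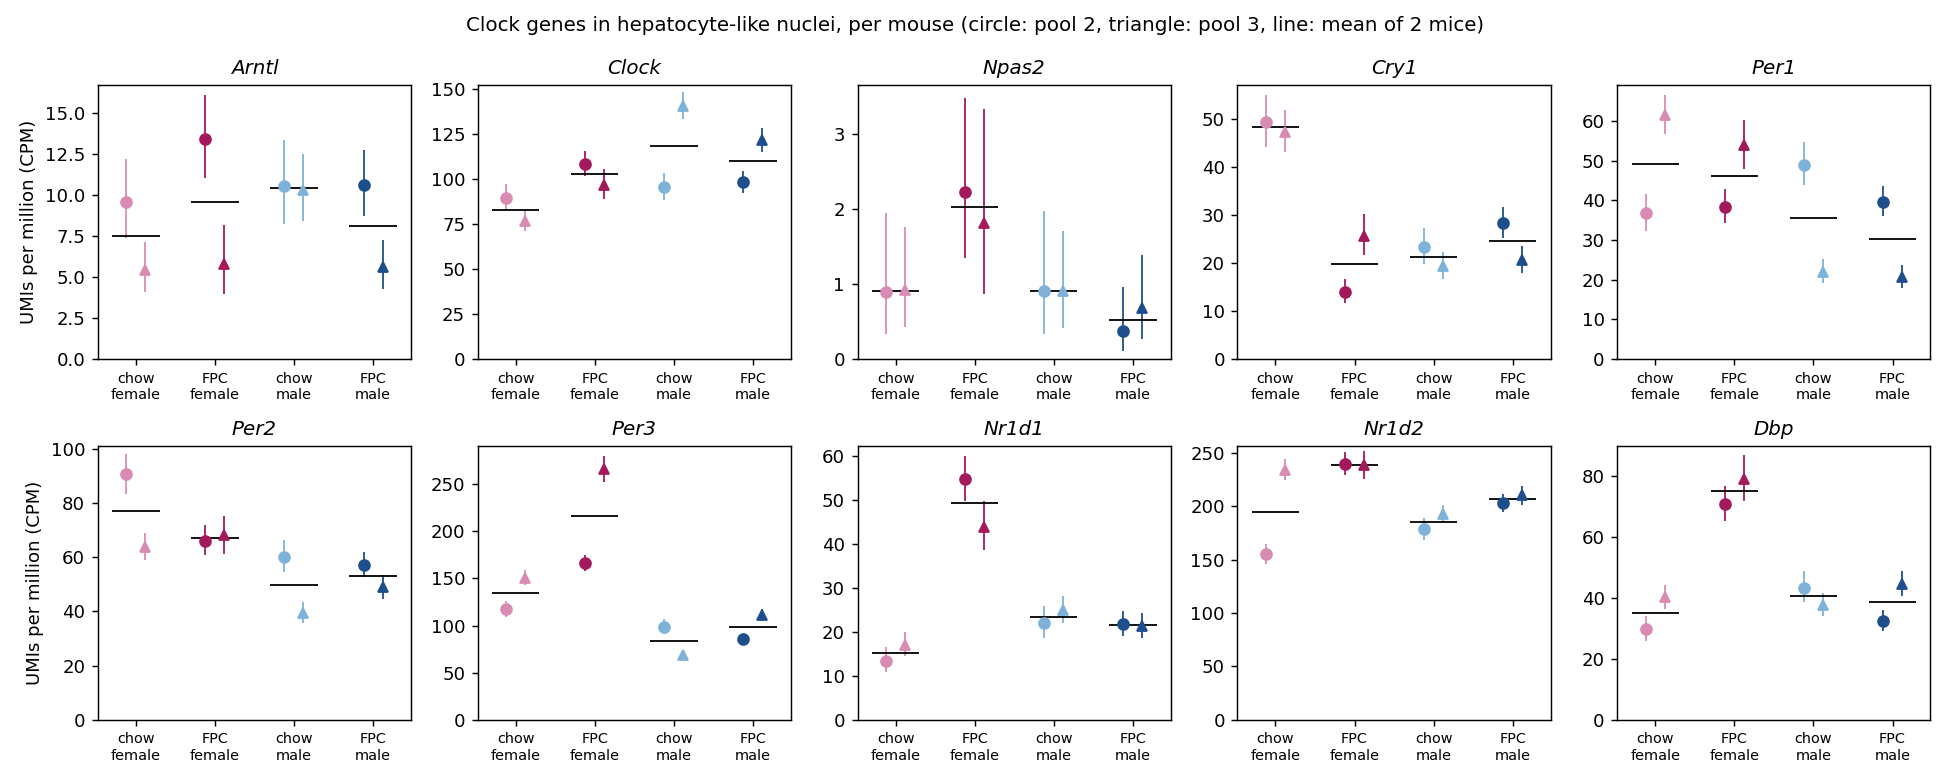
Level of each clock gene in hepatocyte-like nuclei (vertical axis, CPM, from 0) for each mouse by group (horizontal axis). Circles are mice of pool 2 and triangles mice of pool 3, bars are exact 95% Poisson intervals of the count, and black lines are means of 2 mice. Nr1d1 and Dbp lie highest in both FPC females (Nr1d1 44.0 and 54.7 CPM, Dbp 70.9 and 79.2 CPM), and Cry1 lies highest in both chow females (47.3 and 49.3 CPM).

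The first question was whether clock genes differed between diets. In females on the FPC diet, Nr1d1 and Dbp RNA were higher than on chow, and Cry1 was lower by an amount that narrowly missed the threshold. Of the activators, Arntl and Clock differed by less than their error. The scarce Npas2 was higher by more than its error (1.00 ± 0.43) but did not pass (edgeR adjusted p = 0.223). In males no clock gene passed the test. Differences below are log2 changes ± SE from edgeR's quasi-likelihood test with a term for the pool. The test gives no SE, so it was derived as the absolute log2 change over the square root of the F statistic. Its p-values were adjusted (Benjamini-Hochberg) over all 13524 genes tested in hepatocyte-like nuclei, and a gene was called at an adjusted p under 0.05. Of the 10 members, 2 were called for the diet in females (2.53% of all genes were), 0 for the diet in males (1.01% of all genes), 1 for the diet averaged over the sexes (3.29%) and 0 for the difference between the 2 sexes' diet effects (0.00739%). At an unadjusted p under 0.05 those counts were 4, 0, 3 and 4 members by the same test (22.3%, 12.7%, 21.4% and 13.5% of all genes), and DESeq2 called 3, 0, 1 and 1 (2.07%, 1.30%, 2.72% and 0.381% of the genes it fitted). The median log2 change of the members was 0.17 in females and -0.11 in males, against -0.01 and 0.00 over all genes tested.

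**Figure D2:**
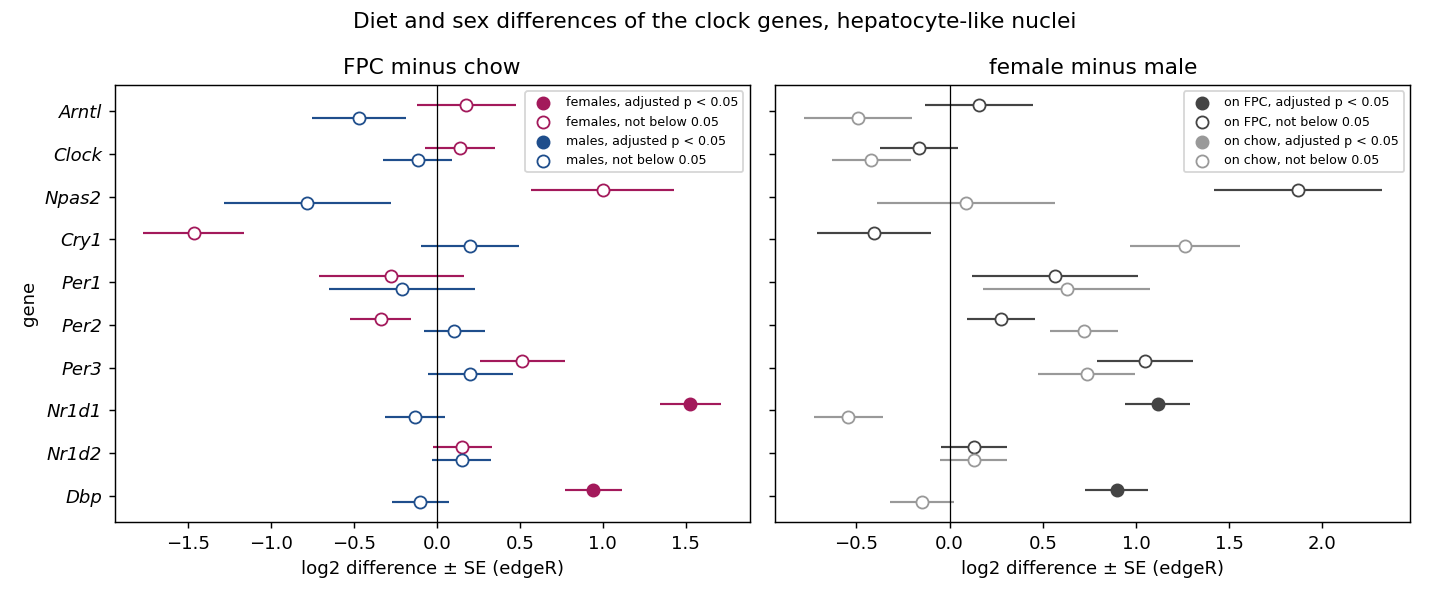
Log2 differences ± SE (horizontal axis, edgeR) of the 10 clock genes (vertical axis) in hepatocyte-like nuclei, FPC minus chow in females and males at left and female minus male on each diet at right. Filled points have an adjusted p under 0.05, which holds for Nr1d1 (1.53) and Dbp (0.94) in females at left and for the same genes on the FPC diet at right (1.12 and 0.90).

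Among the activators, Arntl, which encodes BMAL1, stood at 9.54 CPM in the pool 2 mouse and 5.45 CPM in the pool 3 mouse of the chow females, at 13.4 and 5.79 CPM in FPC females, at 10.6 and 10.3 CPM in chow males, and at 10.6 and 5.59 CPM in FPC males. The 2 diets overlapped in both sexes, and the diet difference was 0.18 ± 0.30 in females (edgeR adjusted p = 0.758) and -0.47 ± 0.28 in males (adjusted p = 0.531). Clock, its usual partner, was 89.4 and 76.4 CPM in chow females and 108 and 96.8 CPM in FPC females, pool 2 first, so that both FPC females lay above both chow females. In males it was 95.3 and 141 CPM on chow and 98.1 and 121 CPM on FPC, with overlap, and neither diet difference passed (0.14 ± 0.21, adjusted p = 0.728, and -0.11 ± 0.21, adjusted p = 0.866). Npas2, the alternative partner of BMAL1, was the scarcest member, with 4 to 19 UMIs per mouse. It was 0.894 and 0.925 CPM in chow females, 2.23 and 1.81 CPM in FPC females, 0.905 and 0.901 CPM in chow males, and 0.375 and 0.674 CPM in FPC males. Both FPC females were the highest and both FPC males the lowest mice for Npas2, but neither diet difference passed (1.00 ± 0.43 in females, edgeR adjusted p = 0.223, and -0.78 ± 0.50 in males, adjusted p = 0.564).

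Among the Cry and Per repressors, Cry1 had the largest fitted diet difference in females. Its level was 49.3 and 47.3 CPM in chow females and 14.0 and 25.7 CPM in FPC females, against 23.4 and 19.3 CPM in chow males and 28.4 and 20.6 CPM in FPC males. The 2 chow females lay above all 6 other mice, and the FPC females lay among or below the males. The fitted diet difference in females was -1.47 ± 0.30 (edgeR adjusted p = 0.0510), on the edge of the threshold: 8 of 15 alternative settings called it, with adjusted p from 7.28e-06 to 0.213, and without the pool 2 FPC female it was -0.92 (adjusted p = 0.213). In males it was 0.20 ± 0.30 (adjusted p = 0.829). Per1, an immediate responder to feeding and hormones as well as a clock gene, stood at 36.8 and 61.6 CPM in chow females, 38.4 and 53.9 CPM in FPC females, 49.0 and 22.0 CPM in chow males, and 39.6 and 20.7 CPM in FPC males. The spread between the 2 mice of a group exceeded any difference between diets (-0.27 ± 0.44 in females, adjusted p = 0.746, and -0.21 ± 0.44 in males, adjusted p = 0.886). Per2, its paralog, was 90.5 and 63.7 CPM in chow females, 66.0 and 68.0 CPM in FPC females, 60.2 and 39.3 CPM in chow males, and 57.2 and 48.8 CPM in FPC males, with overlapping diets in both sexes. Its diet differences were -0.34 ± 0.18 and 0.11 ± 0.18 (adjusted p = 0.311 and 0.854). Per3, whose promoter window held D-boxes, was 118 and 151 CPM in chow females and 166 and 266 CPM in FPC females, both above. In males it was 98.6 and 68.6 CPM on chow and 85.7 and 111 CPM on FPC, with overlap. Neither diet difference passed (0.51 ± 0.26, adjusted p = 0.278, and 0.20 ± 0.26, adjusted p = 0.793). Per3 lies wholly inside the annotated span of Camta1 on the same strand, and Camta1 itself was 43.2 to 63.6 CPM with a difference of -0.08 in females (edgeR adjusted p = 0.810).

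Nr1d1, which encodes the repressor REV-ERB alpha, had the largest called change. It was 13.4 and 17.1 CPM in chow females and 54.7 and 44.0 CPM in FPC females, pool 2 first, and 22.0 and 24.9 CPM in chow males and 21.8 and 21.4 CPM in FPC males. Both FPC females exceeded all 6 other mice, and both chow females were the lowest of the 8. The group means were 15.2 ± 2.58 CPM in chow females and 49.3 ± 7.61 CPM in FPC females (SD, n = 2 each), and the fitted difference was 1.53 ± 0.18, or 2.88-fold (edgeR adjusted p = 0.00968). In males it was -0.13 ± 0.18 (adjusted p = 0.811), and averaged over the sexes 0.70 ± 0.13 (adjusted p = 0.0302). The female difference stayed called in 13 of 15 alternative settings, but leaving out the pool 2 FPC female gave 1.31 (adjusted p = 0.0983) and leaving out the pool 2 chow female gave 1.36 (adjusted p = 0.0896). The average over the sexes was lost (adjusted p from 0.0535 to 0.143) without any 1 of the 6 mice that were chow-fed or FPC females. The difference between the female and male diet effects, 1.66 ± 0.26, did not pass with edgeR (adjusted p = 0.137), while DESeq2 gave an adjusted p of 0.00395. Nr1d1 overlaps the opposite-strand gene Thra by 1075 bases. The sources used here do not give the strand setting of the counting, and Thra was 5.24 to 13.2 CPM with a female diet difference of 0.73 (edgeR adjusted p = 0.328). Nr1d2, for REV-ERB beta, was 155 and 234 CPM in chow females and 240 and 238 CPM in FPC females, and 179 and 193 CPM in chow males and 203 and 210 CPM in FPC males. FPC mice lay above chow mice of their sex, by amounts that did not pass (0.15 ± 0.18 in each sex, adjusted p = 0.650 and 0.776).

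Dbp, an output factor whose RNA swings widely over the day, was ordered like Nr1d1 in females. It was 29.8 and 40.2 CPM in chow females, 70.9 and 79.2 CPM in FPC females, 43.4 and 37.7 CPM in chow males, and 32.6 and 44.5 CPM in FPC males. Both FPC females again exceeded the other 6 mice, while the diets overlapped in males. The difference was 0.94 ± 0.17, or 1.92-fold, in females (edgeR adjusted p = 0.0358) and -0.10 ± 0.17 in males (adjusted p = 0.854). The difference between these effects was 1.04 ± 0.24 and did not pass (edgeR adjusted p = 0.200). The female call for Dbp was lost without the term for the pool (adjusted p = 0.0598) and without any 1 of the 4 females (adjusted p from 0.124 to 0.226, with log2 changes of 0.83 to 1.12). Dbp overlaps the opposite-strand gene Sphk2 by 737 bases, and Sphk2 was 7.61 to 18.9 CPM with a female diet difference of 0.69 (edgeR adjusted p = 0.138).

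Counted by overlap alone, both mice of one diet lay beyond both of the other for 7 of 10 members in females (6 higher on FPC and 1 lower) and for 3 of 10 in males (1 higher and 2 lower). The shares over all genes tested were 51.8% and 36.8%. For 2 members, Npas2 and Nr1d1, the FPC mice lay above chow in females and below in males, as did or conversely did 6.87% of all genes.

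Other values differed between the female diet groups without overlap. Median depth per hepatocyte-like nucleus was 4255 and 4102 UMIs for the chow females, 6350.5 and 5142 UMIs for the FPC females, 4657 and 3918.5 UMIs for the chow males, and 5395.5 and 5505 UMIs for the FPC males. In the hepatocyte-like sums, the 10 T or NK cell markers added up to 4.47 to 7.61 CPM in chow females and 37.3 to 93.9 CPM in FPC females, and to 5.43 to 13.0 CPM in chow males and 16.4 to 27.1 CPM in FPC males. Cd3g was at 0 in chow females and Klrb1c in chow males, and none was at 0 in the FPC groups. The 9 cholangiocyte markers added up to 116 to 143 CPM in chow females, 179 to 204 CPM in FPC females with Krt19 at 0, 65.3 to 95.6 CPM in chow males with Cftr at 0, and 87.8 to 88.4 CPM in FPC males. The 10 stellate markers added up to 111 to 122 CPM in chow females and 85.2 to 87.5 CPM in FPC females, and to 104 to 120 CPM in chow males and 75.1 to 92.7 CPM in FPC males. The 11 macrophage markers added up to 69.8 to 90.8 CPM in chow females and 55.9 to 60.6 CPM in FPC females, and to 72.2 to 81.6 CPM in chow males and 50.3 to 69.3 CPM in FPC males. The 12 hepatocyte markers added up to 29573 to 34225 CPM in chow females and 23493 to 27008 CPM in FPC females, and overlapped in males at 25207 to 32588 and 17953 to 25391 CPM. No marker of these 3 lists was at 0 in any group. The median mitochondrial share per nucleus was 1.93% and 1.30% for the chow females, 1.19% and 1.07% for the FPC females, 1.63% and 1.34% for the chow males, and 1.36% and 0.942% for the FPC males. The part of depth, of RNA quality or of these cells in the Nr1d1, Dbp and Cry1 values was not tested. Summed over nuclei of every class, Nr1d1 differed by 1.43 between diets in females (edgeR adjusted p = 0.0111) and Dbp by 0.91 (adjusted p = 0.0381). Of the 14343 nuclei in that sum 12841 were hepatocyte-like, so it is no separate check on the mixture of cells.

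The second comparison was between the sexes on each diet. On the FPC diet Nr1d1 and Dbp were higher in females than in males, and on chow no member passed. The female minus male difference on FPC was 1.12 ± 0.18 for Nr1d1, or 2.17-fold (edgeR adjusted p = 0.0152), and 0.90 ± 0.17 for Dbp, or 1.86-fold (adjusted p = 0.0262). These 2 of 10 members stood against 5.63% of all genes called. Npas2 (1.87 ± 0.45, adjusted p = 0.0528) and Per3 (1.05 ± 0.26, adjusted p = 0.0559) fell just short. Leaving out either FPC female, or the pool 3 FPC male, ended both calls (adjusted p from 0.0626 to 0.130 for Nr1d1 and 0.0588 to 0.185 for Dbp), and leaving out the pool 2 FPC male ended that for Dbp (adjusted p = 0.0763). On chow 0 of 10 members were called (1.55% of all genes were), while 4 had an unadjusted p under 0.05 (11.8% of all genes), and DESeq2 called Cry1 (1.45% of the genes it fitted). The differences on chow were 1.26 ± 0.30 for Cry1 (edgeR adjusted p = 0.111), 0.72 ± 0.18 for Per2 (adjusted p = 0.141), 0.74 ± 0.26 for Per3 (adjusted p = 0.302) and -0.54 ± 0.19 for Nr1d1 (adjusted p = 0.283). Cry1 on chow was called in 6 of 15 alternative settings, among them without either FPC female (adjusted p = 0.0280 and 0.0286) and without either FPC male (0.0391 and 0.0476). The mice of the 2 sexes did not overlap for 6 of 10 members on FPC, all 6 higher in females, and for 6 of 10 on chow, 3 higher and 3 lower. Over all genes those shares were 50.7% and 38.0%.

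The third comparison set the 2 mice of each group side by side, where diet and sex are held fixed and pool, animal and any time of collection vary. Arntl was lower in the pool 3 mouse of all 4 groups. The differences, pool 3 minus pool 2 on the log2(CPM + 1) scale, were -0.71 and -1.08 for females on chow and FPC, and -0.03 and -0.82 for males on chow and FPC. It was the only member with 1 direction in all 4 groups, which 25.4% of all genes had. The fitted pool difference of Arntl was -0.75 ± 0.21 (edgeR adjusted p = 0.165), and 0 of 10 members were called for the pool (0.118% of all genes), with 2 at an unadjusted p under 0.05 against 15.7% of all genes. DESeq2 also called 0 (0.875% of the genes it fitted). Per1 differed as much but in directions that followed sex, 0.73 and 0.48 for females on chow and FPC against -1.12 and -0.90 for males on chow and FPC. That pattern was picked after its values were seen and was not tested. Nr1d1, by contrast, differed between the mice of a group by at most 0.33, less than its fitted 1.53 between the diets in females, and Dbp by at most 0.44. Clock, also split by sex, differed by -0.23, -0.16, 0.56 and 0.30 in chow females, FPC females, chow males and FPC males. Cry1 reached 0.83 in FPC females and Per3 0.68 in the same group.

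**Figure D3:**
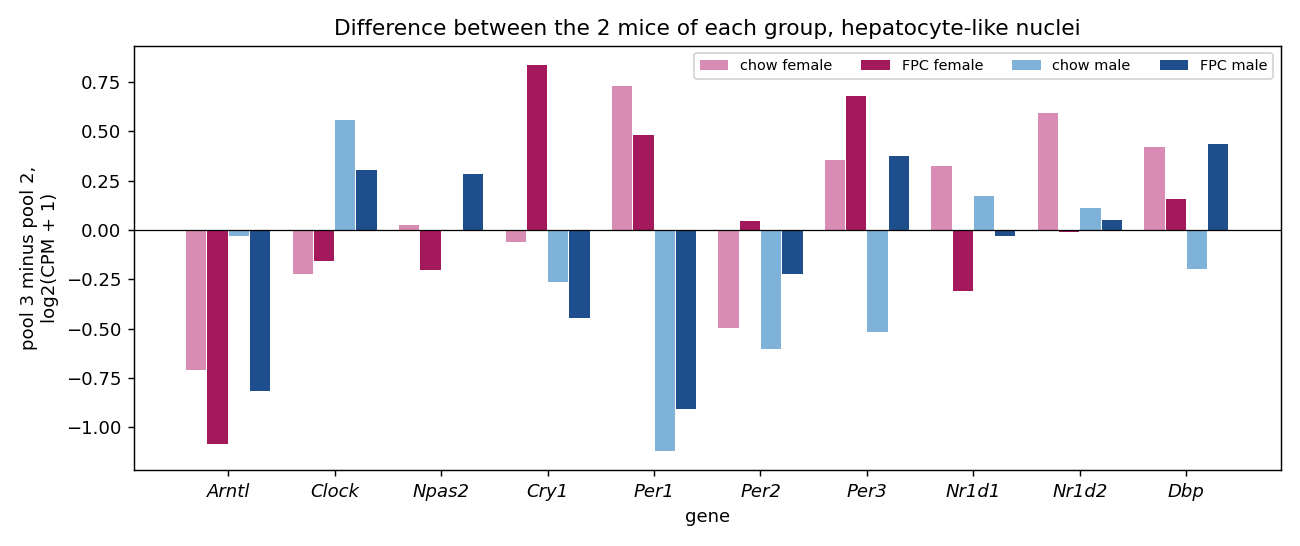
Difference between the 2 mice of each group, pool 3 minus pool 2 on the log2(CPM + 1) scale (vertical axis), for each clock gene (horizontal axis), 1 bar per group. All 4 Arntl bars lie below 0 (-1.08 to -0.03), Per1 is above 0 in females (0.73 and 0.48) and below 0 in males (-1.12 and -0.90), and no Nr1d1 bar is longer than 0.33.

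Within a mouse, opposing arms of the loop were also set against each other. The ratio of Nr1d1 to Arntl CPM, pool 2 first, was 1.41 and 3.13 for females on chow, 4.09 and 7.59 for females on FPC, 2.09 and 2.42 for males on chow, and 2.06 and 3.83 for males on FPC. FPC females were highest, the chow females overlapped the males, and in all 4 groups the pool 3 mouse had the higher ratio. The ratio of Nr1d1 to Cry1 was 0.272 and 0.361 for females on chow, 3.92 and 1.71 for females on FPC, 0.942 and 1.29 for males on chow, and 0.769 and 1.04 for males on FPC. For this ratio the chow females were the lowest and the FPC females the highest of the 8 mice, while the diets overlapped in males. Across the 8 mice, which share pools and groups, log2 levels of Nr1d1 and Dbp had a Pearson r of 0.90 (Spearman rho 0.67), and those of Nr1d1 and Cry1 an r of -0.76 (rho -0.76). Clock and Per1 had an r of -0.87 (rho -0.71). These pairs are among the strongest of all pairs of members, and none was tested. Arntl and Nr1d1, whose RNAs peak nearly opposite over the day, had an r of 0.22 (rho 0.55), not a negative one.

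Of 6351 genes with a mean of at least 20 CPM, those most like Arntl over the 8 mice were Trmt1 (r 0.96, rho 0.88), Syvn1 (r 0.94, rho 0.98), Pdia3 (r 0.94, rho 0.88), Lman2 (r 0.94, rho 0.90) and Rpn2 (r 0.93, rho 0.79). Each of these was lower in the pool 3 mouse of all 4 groups, as Arntl was. The most opposite were Lyst (r -0.89, rho -0.81), Mrs2 (r -0.87, rho -0.81), Gm12353 (r -0.86, rho -0.81), Parp4 (r -0.86, rho -0.55) and Adal (r -0.86, rho -0.93). For Nr1d1 the most like were Firre (r 0.99, rho 1.00), Leng8 (r 0.98, rho 0.93), AI480526 (r 0.97, rho 0.95), Lgals8 (r 0.96, rho 0.90) and Hps4 (r 0.95, rho 0.88), all highest in the 2 FPC females. The most opposite to Nr1d1 were Chd7 (r -0.98, rho -0.79), Ubac2 (r -0.95, rho -0.95), Pbx3 (r -0.91, rho -0.74), Tle4 (r -0.90, rho -0.67) and Laptm4a (r -0.90, rho -0.71). The clock members themselves were left out of this ranking beforehand. No gene from the list of other clock genes stood among these 20 genes.

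Around the 10 members, a list of 17 other clock genes had 16 tested and 0 called for the diet in females, in males or on average. In females 8 of the 16 lay above 0 and their median was 0.03. On chow 1 of the 16 was called between the sexes (1.55% of all genes). On the FPC diet 2 of the 16 were called (5.63%), both higher in females, Rora (1.06 ± 0.20, edgeR adjusted p = 0.0266), an activator that competes with REV-ERB at ROR elements, and Hlf (0.83 ± 0.19, adjusted p = 0.0493), a D-box factor related to DBP. Of 15 rhythmic liver outputs such as Wee1 and Nampt, edgeR called 0 of 15 in any diet, sex or pool contrast of hepatocyte-like nuclei. At an unadjusted edgeR p under 0.05 there were 6 for the diet in females (22.3% of all genes), 5 for the diet in males (12.7%) and 7 for sex on FPC (25.2%). Below 0 for the diet lay 9 of the 15 in females (median -0.31) and 13 in males (median -0.41, against 0.00 over all genes tested). The list as a whole was not tested.

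Genes that report feeding state and stress hormones, which can shift the liver clock, were listed beside them. Of 10 fasting genes, Fgf21, a hormone made in fasting and in diet stress, was higher on FPC in females (2.05 ± 0.40, edgeR adjusted p = 0.0443) and males (2.61 ± 0.39, adjusted p = 0.0281), and Pdk4, which spares glucose, was higher on average (2.08 ± 0.42, adjusted p = 0.0428). Of 6 feeding genes, Pnpla3, a lipid-droplet protein, was higher in males (2.86 ± 0.46, adjusted p = 0.0358) and on average (2.05 ± 0.31, adjusted p = 0.0156), while the median of the list was -0.38 for the averaged diet and 4 of the 6 lay below 0. The median of the fasting genes was 0.04, with 5 of the 10 below 0. Of 5 glucocorticoid genes, Tsc22d3 was lower on FPC in males (-1.99 ± 0.32, adjusted p = 0.0364) and on average (-1.32 ± 0.22, adjusted p = 0.0225), and higher in females than in males on FPC (1.43 ± 0.32, adjusted p = 0.0440). Fkbp5 was lower on average (-0.77 ± 0.16, adjusted p = 0.0493). Of the 6 temperature and heat shock genes and the 5 immediate early genes tested, edgeR called 0 in any diet, sex or pool contrast of hepatocyte-like nuclei, and at an unadjusted p under 0.05 in the pool contrast there were 2 and 3 (15.7% of all genes). The median pool difference was -0.33 for the first list and -0.71 for the second, against 0.01 over all genes tested, pool 3 being lower.

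Outside hepatocytes the clock genes were read from few molecules. Mice had 51566 to 219542 UMIs in endothelial-like, 44612 to 151362 in stellate-like and 21325 to 688681 in macrophage-like nuclei. Clock and Nr1d2 passed the filter on low counts in all 3 classes and Per3 also in macrophage-like nuclei, and 0 of these were called for the diet averaged over the sexes. All genes called amounted to 0.0804% in endothelial-like, 0.766% in stellate-like and 0.0453% in macrophage-like nuclei. None of the 2, 2 and 3 members had an unadjusted edgeR p under 0.05 or was called by DESeq2. Over all genes tested, 164 of 2487, 216 of 2351 and 486 of 4417 had such an unadjusted p. DESeq2 called 0.00%, 0.00% and 0.0833% of the genes it fitted. With only 2 or 3 members tested, these counts of 0 cannot show that clock genes were alike between diets. Summed over mice, with exact 95% Poisson intervals that cover counting error only, Arntl was 42.1 CPM (32.5 to 53.7) in macrophage-like nuclei against 8.91 CPM (8.21 to 9.64) in hepatocyte-like, 15.9 CPM (8.44 to 27.1) in endothelial-like and 14.2 CPM (7.09 to 25.4) in stellate-like nuclei. Per mouse it ran from 26.5 to 47.9 CPM in macrophage-like nuclei and from 5.45 to 13.4 CPM in hepatocyte-like nuclei, but the macrophage-like value rests on 1 molecule in each of 3 mice, and 46 of the 65 molecules came from FPC females (46.5 and 44.8 CPM, with intervals of 31.8 to 65.6 and 24.5 to 75.2). Per3 was 125 CPM (123 to 128) in hepatocyte-like nuclei, 83.6 (69.8 to 99.3) in macrophage-like, 52.9 (38.0 to 71.8) in stellate-like and 37.8 (25.7 to 53.7) in endothelial-like nuclei. These sums weigh mice unequally, and within groups Per3 averaged 216 CPM in hepatocyte-like against 103 CPM in macrophage-like nuclei of FPC females, and 98.6 against 54.0 CPM in those of FPC males. Per2 was 59.8 CPM (58.0 to 61.6) in hepatocyte-like and 18.3 CPM (10.2 to 30.2) in endothelial-like nuclei. Npas2 was 14.2 CPM (7.09 to 25.4) in stellate-like and 1.03 CPM (0.801 to 1.30) in hepatocyte-like nuclei, from 11 molecules, 10 of them in the FPC females. Alb, a transcript of hepatocytes, was 19301 CPM in endothelial-like, 17762 in stellate-like and 8716 in macrophage-like nuclei against 10227 in hepatocyte-like nuclei, so a hepatocyte transcript was counted in every class, and the part of free RNA in these levels was not tested.

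In other classes Nr1d1 was counted 1 to 9 times per mouse, apart from 28 molecules in the macrophage-like nuclei of the pool 2 FPC female. In endothelial-like nuclei it was 77.0 and 54.5 CPM for females on chow and 13.7 and 23.4 CPM for females on FPC, in stellate-like nuclei 33.2 and 39.6 CPM against 63.6 and 39.2 CPM, and in macrophage-like nuclei 87.9 and 7.99 CPM against 40.7 and 19.2 CPM. The females on FPC thus lay below in the first class and overlapped those on chow in the other classes, and the counting intervals of single mice overlapped between diets in each class. In endothelial-like and stellate-like nuclei together, summed after the sparse counts of each were seen, it was 55.1 CPM (26.4 to 101) and 46.5 (24.7 to 79.5) for females on chow, 33.2 (17.2 to 58.1) and 30.8 (10.0 to 72.0) for females on FPC, 48.9 (21.1 to 96.3) and 46.9 (21.4 to 89.0) for males on chow, and 30.3 (8.26 to 77.6) and 49.0 (18.0 to 107) for males on FPC. Each rests on 4 to 13 molecules and all 8 intervals overlap. The intervals cover counting error only, and a diet difference was not tested in this sum, which joins classes that were ordered differently. Dbp was 38.8 (21.2 to 65.1) and 67.8 (33.9 to 121) CPM in FPC females and 55.1 (26.4 to 101) and 60.8 (35.4 to 97.3) in chow females. Cry1 was 27.7 (13.3 to 51.0) and 24.7 (6.72 to 63.2) CPM in FPC females and 5.51 (0.140 to 30.7) and 14.3 (3.90 to 36.6) in chow females, also with overlap. Whether the diet effect on these genes differs between hepatocyte-like and other nuclei was not tested.

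**Figure D4:**
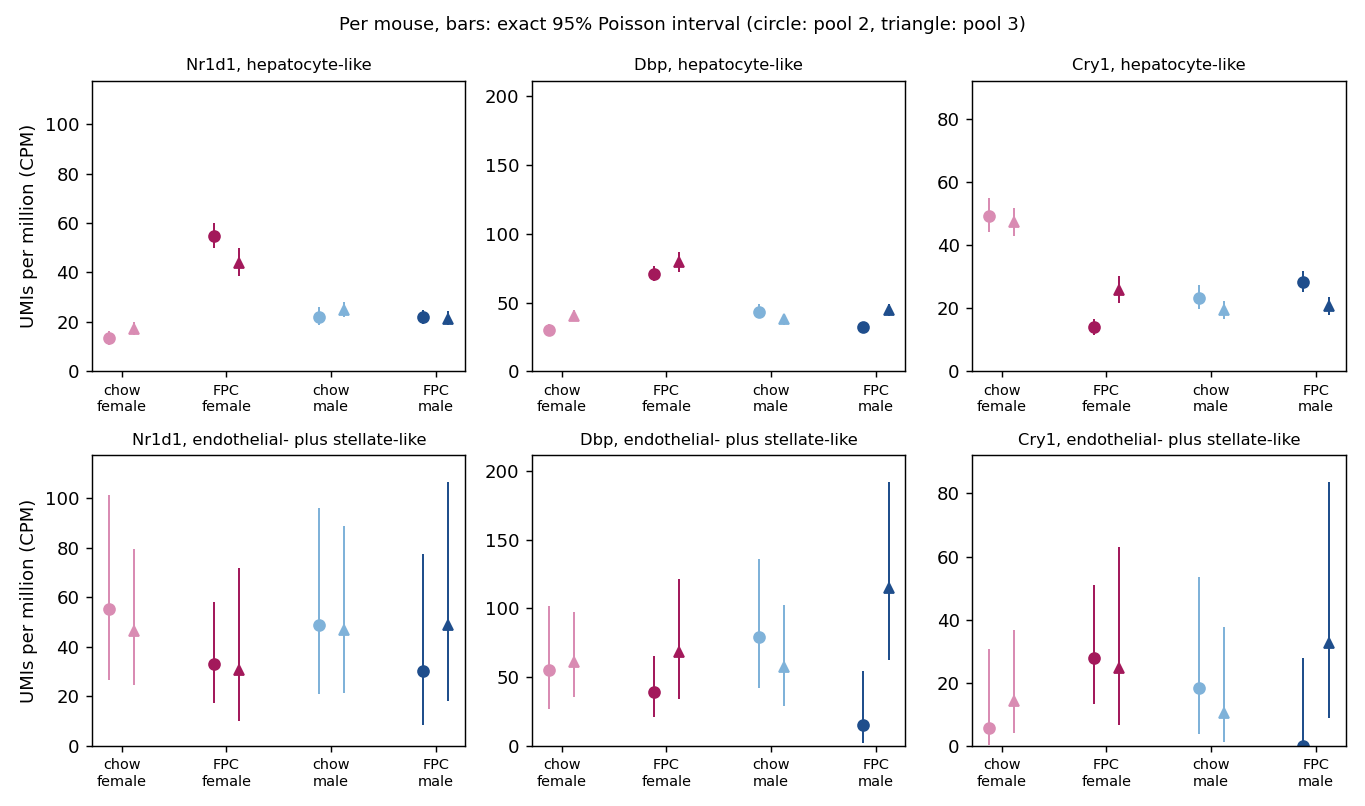
Levels of Nr1d1, Dbp and Cry1 per mouse (vertical axis, CPM, from 0) by group (horizontal axis) in hepatocyte-like nuclei (top) and in endothelial-like plus stellate-like nuclei (bottom), with exact 95% Poisson intervals as bars, circles for pool 2 and triangles for pool 3. Nr1d1 in FPC females is 44.0 and 54.7 CPM at the top, above all other mice, and 30.8 and 33.2 CPM at the bottom, where all intervals overlap.

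A UMI of Glul, a pericentral enzyme, was found in 786 of 1409 and 867 of 2123 hepatocyte-like nuclei of the chow females and in 754 of 1240 and 395 of 984 of the FPC females, so that 1 UMI does not single out pericentral nuclei. Nr1d1 in FPC females was 56.7 and 41.3 CPM with Glul and 51.3 and 45.9 CPM without, and in chow females 14.4 and 19.3 CPM with Glul and 12.1 and 15.3 CPM without.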

How the data were processed

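The deposited matrices hold counts, raw UMI counts per gene and barcode, with antibody counts of 4 hashtags as further rows. The authors used Cell Ranger and build mm10. Its version is 6.0.1 per the file headers, whereas the submitters' processing notes give 3.1. The sources used here give neither the nucleus caller nor the use of intronic reads. Hashtags were assigned with HTODemux (Seurat 5.3.0, positive quantile 0.99) and matched to mice by the authors' manifest. A nucleus was used if it had 500 or more genes, 5% or less mitochondrial counts, 1 hashtag and no Scrublet doublet call (expected 10%), giving 6512 in pool 2 and 7831 in pool 3. Scrublet called 22.0% and 25.8% doublets, and with another random seed 21.3% and 8.12%, so an alternative kept its doublets. Nuclei were clustered (scanpy 1.11.5, Leiden resolution 0.5) and named from marker lists. 41 cholangiocyte-like and 510 unnamed nuclei enter only the sum over all nuclei. Counts were summed per mouse, the replicate. The test was edgeR 4.0.16's two-sided quasi-likelihood F test after filterByExpr and TMM scaling, with 4 groups plus the pool as terms, 3 residual degrees of freedom and Benjamini-Hochberg adjustment. Mice needed 10 nuclei of a class, or 5 for macrophage-like nuclei. The fit was tried on simulated hepatocyte-like sums with genes changed in FPC females only and no pool difference. Only the diet contrast in females was read there, so the other contrasts were not checked. The pool pairs the mice, since each pool is 1 library by design. The correlations of deviations from group means between same-pool mice were 0.09 to 0.30 over genes. Poisson intervals cover counting error only. Gene spans come from GENCODE M21.

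The members and gene lists were chosen with earlier results of these data known. All members are named, other genes only where they belong to a list and pass the test, or rank among the 5 most like and 5 most opposite to Arntl or Nr1d1. Some list results are not reported here. The alternatives were DESeq2 1.42.0, RLE scaling, no filter on low counts, no term for the pool, MULTIseqDemux, doublets kept, all nuclei of any class and leaving out each of the 8 mice.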

Additional observations from a re-analysis of the deposited data

Results flagged for a closer look

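For Npas2 and Nr1d1, both FPC females lay above both chow females and both FPC males below both chow males in hepatocyte-like nuclei. Neither male difference passed, nor the female one of Npas2. For Npas2 the female diet effect minus the male one was 1.78 on the log2 scale (edgeR adjusted p = 0.320), from 4 to 19 molecules per mouse. For Nr1d1 it was 1.66 (edgeR adjusted p = 0.137), and the difference in males was -0.13 ± 0.18 (edgeR adjusted p = 0.811). Such opposite separation held for 6.87% of all genes tested. With 2 mice per group no search for single deviating mice was made.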

How the results depend on the processing

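No member that was called in the main setting or in an alternative changed direction between them in hepatocyte-like nuclei. Of 1040 log2 changes of single members under alternatives, 69 changed sign, all of them uncalled, 20 lost their call and 32 gained one. The counts of members called that moved by more than 1.5 times were these. Without the filter on low counts, 3 were called for the diet averaged over the sexes (6.17% of all genes then tested). In that setting 3 were called for the difference of the diet effects (2.07%), 3 for sex on chow (2.88%) and 4 for sex on FPC (8.06%). For the pool it called 1, Arntl (2.64%). Calls over all genes thus rose in that setting too. DESeq2 called 1 for the difference of the diet effects (0.381% of the genes it fitted) and 1 for sex on chow (1.45%). Without the replicate block, that is without the term for the pool, 1 was called for the diet in females (1.41%). No other count moved in that setting. MULTIseqDemux gave 4 for sex on FPC, but its share over all genes is not given here, so a general shift in calls cannot be told apart. Leaving out 1 mouse also changed the counts for the averaged diet, the diet in females and sex on each diet. Those fits leave 1 mouse in a group, so their counts are not set against all genes here. The counts for the diet in males and for endothelial-like, stellate-like and macrophage-like nuclei were 0 in every setting run. The cause of these changes was not tested. With 2 mice per group and 3 residual degrees of freedom, a member that missed the threshold is not shown to be alike between groups, and with few molecules in other classes only large differences could have been seen.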
